A study of Mus musculus with 8 samples.

Results

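The levels of 10 Notch pathway genes were compared between aortas of control mice and of mice that lack Tsc1 in smooth muscle. They are the 4 receptors Notch1 to Notch4, the ligands Jag1, Jag2 and Dll4, and the Hey genes Hey1, Hey2 and Heyl. All 10 members were found by symbol among the 23993 genes of the deposited table, and 9 of them averaged at least 1 FPKM across the libraries, the filter that left 12107 genes for testing. Dll4 did not pass and is given by its levels. FPKM (fragments per kilobase of transcript and per fixed number of mapped fragments) are scaled by length, so levels can be compared between genes.

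RNA of the thoracic aorta was sequenced in 8 libraries, all from C57BL/6 males aged 24 weeks. Mice of the 4 control libraries carried Myh11-CreERT2 and the mT/mG reporter with wild-type Tsc1 (Tsc1+/+). Those of the 4 knockout libraries carried the same 2 transgenes with both Tsc1 alleles floxed (Tsc1fl/fl, given as Tsc1-/- in the sample titles). Both groups were given tamoxifen at 1.5 weeks. Myh11-CreERT2 is a tamoxifen-activated Cre made by smooth muscle, so other cells of the wall keep Tsc1. The mT/mG reporter is a membrane-bound fluorescent protein that changes colour on recombination. The labels name smooth muscle cells, but the protocol crushes whole frozen aorta and describes no sorting. Nothing in the labels says whether the numbered libraries are separate mice. If they are not, the p-values reflect the spread among libraries alone, which may be technical.

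Notch receptors are membrane proteins that are activated by ligands on a neighbouring cell. Ligand binding lets the protease Adam10 and then the gamma-secretase complex cut the receptor, and the freed intracellular part joins the DNA-binding protein Rbpj to switch on target genes, of which the Hey and Hes repressors are the best known. In arteries Notch3 is known as the receptor of smooth muscle and Notch1 and Notch4 as receptors of endothelium, with Dll4 and Jag2 on endothelial cells and Jag1 on both. Signalling through Notch3, Jag1 and Hey genes is known for its part in the maturation of arterial smooth muscle.

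Promoter sequences are shown for 2 members, Hey2 because it rose in the knockout and Notch3 because it had the largest difference among the members. RefSeq windows of the mm10 assembly (GRCm38.p6), 250 bases before to 50 after the transcription start, were matched for 8 of the 10 members, the exceptions being Hey1 and Heyl. Capitals mark the 7-base Rbpj site GTGGGAA, or TTCCCAC on the other strand. The windows are chr10:30842734-30843033, minus strand, for Hey2 and chr17:32166841-32167140, minus strand, for Notch3.
Hey2: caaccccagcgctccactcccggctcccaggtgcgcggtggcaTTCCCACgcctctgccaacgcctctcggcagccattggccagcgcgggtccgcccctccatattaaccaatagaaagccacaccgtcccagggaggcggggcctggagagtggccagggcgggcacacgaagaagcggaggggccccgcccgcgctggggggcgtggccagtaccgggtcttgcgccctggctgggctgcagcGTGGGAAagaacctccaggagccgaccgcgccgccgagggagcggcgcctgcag
Notch3: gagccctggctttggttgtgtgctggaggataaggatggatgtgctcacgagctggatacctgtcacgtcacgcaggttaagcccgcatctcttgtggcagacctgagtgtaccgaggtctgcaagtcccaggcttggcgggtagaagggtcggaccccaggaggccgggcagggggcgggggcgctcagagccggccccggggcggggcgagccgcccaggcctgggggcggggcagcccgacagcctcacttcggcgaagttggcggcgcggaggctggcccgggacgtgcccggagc
The Hey2 window holds the 7-base site in both orientations, once 207 bases before the start and once 4 bases before it, overlapping the start. Of all 32851 windows, 6.38% hold at least 1 copy and 0.256% hold at least 2, and of the 8 member windows only that of Hey2 holds any. The shorter core TGGGAA, contained in the longer site, was in 25.6% of all windows and in the Hey2 window alone among the members. The E-box CACGTG was in 7.15% of windows and in none of the members'. The sequence CACGCG, a site bound by Hey proteins, was in 9.27% of windows and in those of Notch2, Jag1, Jag2 and Dll4. The copy of Jag2 lies 18 bases after the start used for its window. That whole window (chr12:112929446-112929745, minus strand) lies inside RefSeq's bounds for the gene, which end at 112929812. G and C made up 55.7% (Jag1) to 86.0% (Jag2) of the bases in these 4 windows, and the 9.27% is not matched for that. These letters describe the windows and are no measure of binding.

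The number of genes at 1 FPKM or more was 11867 to 12083 per library, and the depth in reads is unknown. FPKM summed over all genes came to 753105, 937271, 593264 and 483615 in controls and to 453564 to 467703 in knockouts, without overlap. What makes up that difference was not tested. Tsc1 was at 4.03 to 6.32 FPKM in controls and 2.99 to 3.71 in knockouts (log2 difference -0.44, SE 0.12, adjusted p = 0.019). Markers of endothelium and of contractile smooth muscle were detected in every library, and both lists were lower in the knockout. The summed FPKM of 21 endothelial markers was 425 to 535 in controls and 273 to 338 in knockouts, with 15 of the 20 tested members lower and 1, the VEGF receptor gene Flt1, higher (from 3.96 ± 0.468 to 13.1 ± 2.38 FPKM). The summed FPKM of 17 contractile smooth muscle markers was 26465 to 27146 in controls and 16806 to 22754 in knockouts, with 10 of 17 lower. Adventitial fibroblast markers were lower in part (5 of 10 tested lower and 0 higher, median log2 difference -0.44). Lum, Col14a1 and Pdgfra, not called, were at 0.38, 0.34 and 0.26. Schwann cell and neuron markers were lower too (3 of 4 lower and 0 higher, median -0.56), against 15% of all genes called lower. Fat cell, striated muscle and red blood cell markers had medians of -0.60, -1.19 and -1.21, with 1 of 8, 1 of 9 and 0 of 4 called. The part of these lists in the results was not tested. In whole tissue, fewer cells of a type and less RNA per cell cannot be told apart. Control 4 had 289 FPKM summed over 14 striated muscle markers, against 5.07 to 64.5 in the other libraries, and control 1 had 351 FPKM over 10 fat cell markers against 60.8 to 201.

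In the knockout aortas the receptors Notch1 and Notch3 and the ligand Jag2 fell, while the target gene Hey2 rose. Notch3 had the largest difference, to 0.513 times the control mean. Of these 4 calls only that of Notch3 was kept in all 17 alternative settings. Leaving out 1 library at a time, the calls of Hey2, Jag2 and Notch1 were lost in 7, 6 and 3 of 8 fits. Notch2, Notch4, Jag1, Hey1 and Heyl did not pass the test. Of the 9 tested members 44.4% were called by limma (1 higher and 3 lower), against 32.2% of all 12107 genes tested (17.1% higher and 15% lower). The groups did not overlap for 1 member with the knockout higher and 3 with the knockout lower, against 18.3% and 15.6% of all genes. With 9 tested members these shares are coarse, and nothing particular to the family is read from them.

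**Figure D1:**
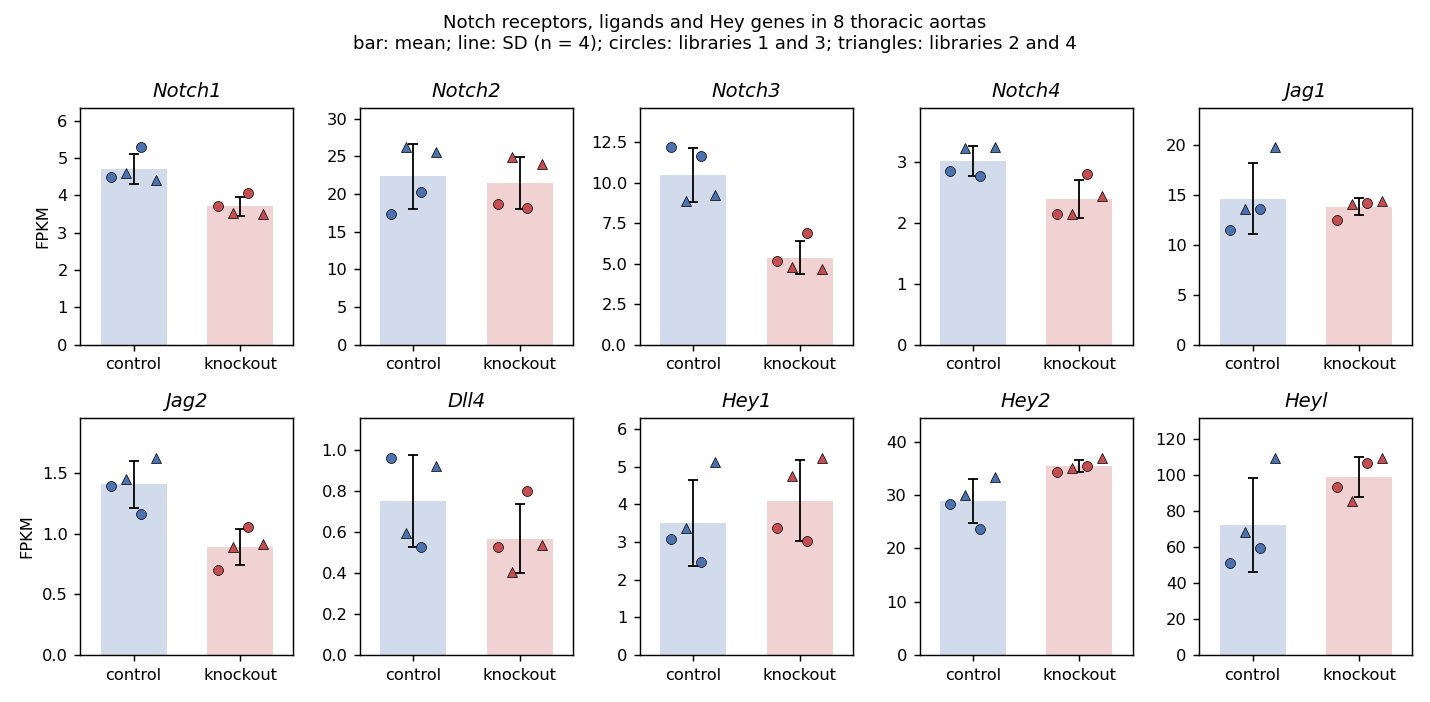
FPKM of each member (vertical axis, from 0) in the 4 control and 4 knockout libraries, with the mean as a bar and the SD as a line, circles for libraries 1 and 3 and triangles for libraries 2 and 4. The 4 knockouts of Notch3 sit between 4.68 and 6.88, all below the controls (8.87 to 12.2), and the 4 knockouts of Hey2 sit above all 4 controls.

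Notch3, the receptor of arterial smooth muscle, measured 12.2, 8.87, 11.6 and 9.26 FPKM in the 4 controls, in the order of their numbers (as throughout), and 5.17, 4.81, 6.88 and 4.68 FPKM in the 4 knockouts. Every knockout library was below every control. The level fell from 10.5 ± 1.67 to 5.38 ± 1.02 FPKM (mean ± SD, n = 4 per group, as throughout; limma log2 difference -0.85, SE 0.13, adjusted p = 0.00174). Among the 4 called members it alone kept its call in every one of the 17 alternatives, with log2 differences from -0.96 to -0.78. Its size ranked at percentile 94.4 of the absolute differences of all tested genes.

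Notch1, a receptor of arterial endothelium, had 4.50, 4.60, 5.29 and 4.42 FPKM in controls and 3.72, 3.54, 4.07 and 3.51 in knockouts. The groups did not overlap, but the highest knockout was close to the lowest control. The level fell from 4.70 ± 0.40 to 3.71 ± 0.26 FPKM (limma log2 difference -0.27, SE 0.07, adjusted p = 0.0223). The call was lost without control 3 (-0.23, adjusted p = 0.0534), without knockout 2 (-0.26, adjusted p = 0.0573) and without knockout 4 (-0.25, adjusted p = 0.054).

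Notch4, made mainly by endothelium, had 2.85, 3.22, 2.77 and 3.24 FPKM in controls and 2.14, 2.15, 2.80 and 2.44 in knockouts. Of the knockouts 3 were below all controls and knockout 3 lay among them. The means were 3.02 ± 0.247 and 2.38 ± 0.311 FPKM (limma log2 difference -0.25, SE 0.09, adjusted p = 0.0606). Without knockout 3 the gene was called as lower (-0.31, adjusted p = 0.0359).

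Notch2, a receptor made by several cell types of the wall, was the most abundant receptor. Its controls were at 17.3, 26.2, 20.3 and 25.6 FPKM and its knockouts at 18.7, 24.9, 18.2 and 24.0. The groups overlapped, and the lower values were those of libraries 1 and 3 in both genotypes. The means were 22.3 ± 4.28 and 21.5 ± 3.49 FPKM (limma log2 difference -0.05, SE 0.15, adjusted p = 0.828).

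Jag1, a ligand of smooth muscle and endothelium, had 11.5, 13.6, 13.7 and 19.8 FPKM in controls and 12.5, 14.1, 14.2 and 14.4 in knockouts. The knockouts lay within the range of the controls, of which control 4 was highest. The log2 difference was -0.05 (SE 0.14, adjusted p = 0.798), and it was 0.09 without control 4.

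Jag2, a ligand of endothelium, was a low gene with 1.39, 1.45, 1.16 and 1.63 FPKM in controls and 0.697, 0.886, 1.06 and 0.915 in knockouts. All knockouts were below all controls. It fell from 1.41 ± 0.193 to 0.889 ± 0.148 FPKM (limma log2 difference -0.35 on the log2(FPKM + 1) scale, which understates the change of low genes, SE 0.10, adjusted p = 0.0322), and with a pseudocount of 0.1 the difference was -0.61. The call was lost when any 1 library other than control 3 or knockout 3 was left out (differences from -0.36 to -0.30, adjusted p from 0.0506 to 0.0731).

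Dll4, the ligand of arterial endothelium that acts on Notch1 and Notch4, was lowest of all, with 0.964, 0.596, 0.525 and 0.921 FPKM in controls and 0.527, 0.407, 0.802 and 0.535 in knockouts. The groups overlapped. Its means were 0.751 ± 0.223 and 0.568 ± 0.167 FPKM, under the filter for testing.

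No Hey gene fell. Hey2, a transcriptional repressor of arterial cells, had 28.3, 30.0, 23.5 and 33.5 FPKM in controls and 34.3, 35.2, 35.5 and 37.0 in knockouts. Every knockout was above every control, though control 4 was near the lowest of them. It rose from 28.8 ± 4.13 to 35.5 ± 1.14 FPKM (limma log2 difference 0.30, SE 0.10, adjusted p = 0.0422). The call was lost when any 1 library other than control 4 was left out (differences from 0.21 to 0.32, adjusted p from 0.0588 to 0.0951). It was also lost without the filter on low values (adjusted p = 0.059) and within the even-numbered libraries alone (0.18, adjusted p = 0.146).

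Heyl, the Hey family member known as a Notch3 target in smooth muscle, was the most abundant member in both groups. It had 51.1, 68.3, 59.6 and 109.9 FPKM in controls and 93.3, 86.0, 107 and 109.5 in knockouts. Controls 1 to 3 were below all knockouts and control 4 was above all of them. The means were 72.2 ± 26.1 and 98.8 ± 11.1 FPKM (limma log2 difference 0.50, SE 0.21, adjusted p = 0.0999), which did not pass. Without control 4, Heyl was called as higher (0.72, adjusted p = 0.00453). Control 4 had the most striated muscle RNA of all libraries and the lowest summed FPKM of the controls (483615). It was also the highest control for Jag1, Jag2, Hey1 and Hey2. The part of any of these traits in its Heyl value was not tested.

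Hey1, a Hey repressor best known in endothelium, had 3.09, 3.37, 2.46 and 5.13 FPKM in controls and 3.38, 4.77, 3.01 and 5.24 in knockouts. The groups overlapped, and libraries 2 and 4 were the higher ones in both. The log2 difference was 0.19 (SE 0.20, adjusted p = 0.509).

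**Figure D2:**
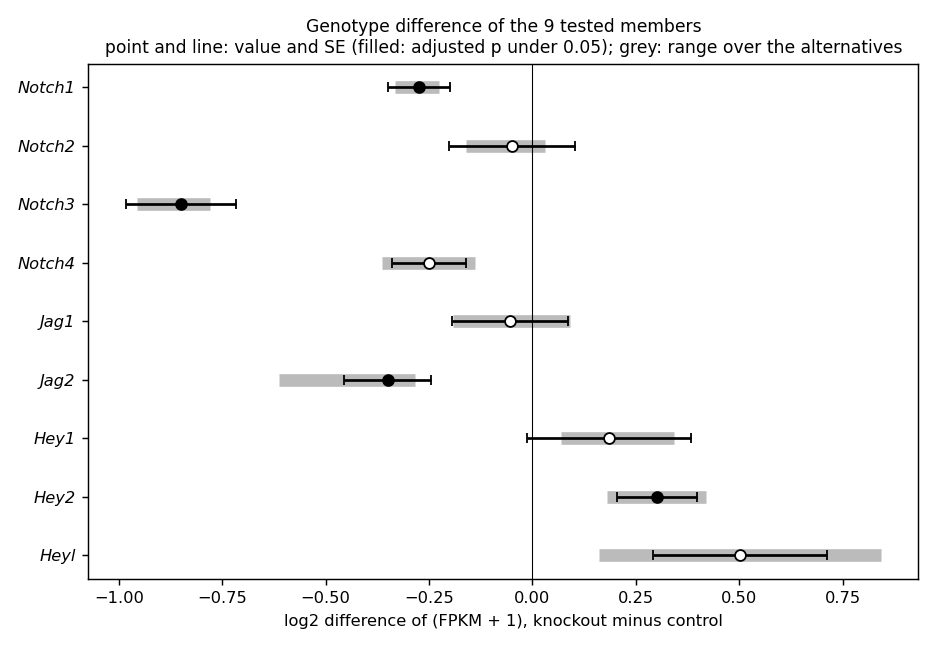
Log2 difference of (FPKM + 1), knockout minus control, for the 9 tested members (horizontal axis), with the SE as a line, filled points for an adjusted p under 0.05 and grey bars for the range over the alternatives. Notch3 lies at -0.85 with its whole grey bar left of 0, while the bars of Notch2 and Jag1 cross 0 and that of Heyl runs from 0.16 to 0.84.

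The ratio of each Hey gene to Notch3 was set out per library as a description. Heyl was 4.19, 7.70, 5.12 and 11.9 times Notch3 in FPKM in the controls and 18.0, 17.9, 15.5 and 23.4 times in the knockouts. The lowest knockout was above the highest control. Hey2 was 2.02 to 3.61 times Notch3 in controls and 5.15 to 7.92 times in knockouts, without overlap. That separation adds nothing new, since every Hey2 knockout was above and every Notch3 knockout below all controls. Hey1 was 0.212 to 0.554 times Notch3 in controls and 0.438 to 1.12 times in knockouts, with overlap. A ratio within a library shows that genes moved unequally and not which of them moved.

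**Figure D3:**
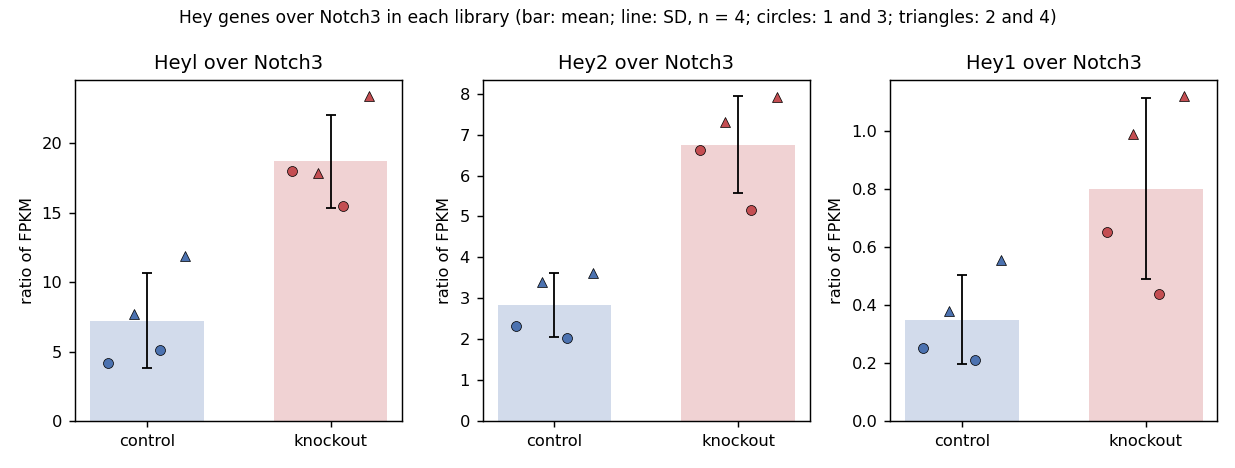
Ratio of the FPKM of Heyl, Hey2 and Hey1 to that of Notch3 in each library (vertical axes, from 0), with the mean as a bar and the SD as a line (n = 4), circles for libraries 1 and 3 and triangles for 2 and 4. For Heyl the knockouts sit between 15.5 and 23.4, all above the controls (4.19 to 11.9), and for Hey1 the groups overlap.

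In controls the order of the levels was Heyl, Hey2, Notch2, Jag1, Notch3, Notch1, Hey1, Notch4, Jag2 and Dll4. The libraries of neighbours in this order overlapped for Hey2 and Notch2, Notch2 and Jag1, Jag1 and Notch3, Notch1 and Hey1, and Hey1 and Notch4. In knockouts Hey1 (4.10 ± 1.07 FPKM) stood before Notch1, and overlap was left between Notch3 and Hey1, Hey1 and Notch1, and Jag2 and Dll4. Notch3 made up 26.2% ± 5.94 of the summed FPKM of the 4 receptors in controls and 16.5% ± 3.82 in knockouts, while Notch2 made up 54.7% ± 6.98 and 64.9% ± 6.24. The sum of the 4 receptors was 36.9 to 42.9 FPKM in controls and 29.8 to 35.4 in knockouts, without overlap. Jag1 was 86.9% ± 2.74 of the 3 ligands in controls and 90.5% ± 1.43 in knockouts. Heyl was 68.2% ± 5.04 of the 3 Hey genes in controls and 71.3% ± 2.20 in knockouts, so the make-up of the Hey genes differed by less than its spread.

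Since endothelial and contractile markers were both lower in the knockout, every gene was also tested relative to the mean of each marker list in its library. That mean was 4.15 in controls and 3.56 in knockouts for endothelial and 8.91 and 8.41 for contractile markers (log2 scale), so most genes are higher on such scales. The contractile mean itself was uneven among knockouts, at 8.19 and 8.12 in knockouts 1 and 3 and at 8.68 and 8.65 in knockouts 2 and 4, against 8.89 to 8.92 in controls, and every value relative to it rests on that. The endothelial mean differed by -0.60 and includes Flt1 (1.50), while the median difference over that list was -0.77. Relative to endothelial markers 7 of the 9 tested members were called higher and 0 lower, against 84.5% of all genes called (82.8% higher and 1.69% lower). Relative to contractile markers 5 were called higher and 0 lower, against 63.2% of all genes (61.5% higher and 1.73% lower). Relative to endothelial markers Notch1 was higher by 0.32 (SE 0.10, adjusted p = 0.0161) and Notch4 by 0.35 (SE 0.10, adjusted p = 0.00963), so their differences were smaller than that of the list's mean. The call of Notch4 on this scale was lost within the even-numbered libraries (0.21, adjusted p = 0.0985). For Jag2 the relative difference of 0.25 did not pass (SE 0.11, adjusted p = 0.0633). It ran from 0.030 to 0.34 over the alternatives, and it was called higher without the filter and with quantile scaling. The log2(FPKM + 1) scale understates the change of so low a gene, so whether Jag2 fell less than the endothelial list is not settled. For Notch3 neither the difference from the endothelial mean (-0.25, SE 0.17, adjusted p = 0.199) nor that from the contractile mean (-0.35, SE 0.22, adjusted p = 0.16) passed. Notch3 was called lower than the endothelial mean within the even-numbered libraries (-0.23, adjusted p = 0.0408). It was called lower than the contractile mean within the even-numbered libraries (-0.57, adjusted p = 0.00648) and without knockout 3 (-0.55, adjusted p = 0.0265). With odd against even numbers as covariate it was called on both scales (adjusted p = 0.0145 and 0.0442). Relative to contractile markers Heyl was higher by 1.002 (SE 0.24, adjusted p = 0.00399), Hey2 by 0.80 (SE 0.17, adjusted p = 0.00244) and Hey1 by 0.69 (SE 0.19, adjusted p = 0.00795). Within the even-numbered libraries alone the calls of Heyl and Hey1 on that scale were lost. How much of each member's change comes from cell make-up was not tested.

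Libraries 1 and 3 differed from libraries 2 and 4 in both genotypes, and the labels do not say what the numbers stand for. With genotype in the model, Notch2 was lower (log2 difference -0.42, SE 0.06, adjusted p = 0.0095), Hey1 lower (-0.49, SE 0.11, adjusted p = 0.0377) and Notch3 higher (0.32, SE 0.08, adjusted p = 0.0449) in the odd-numbered libraries. These are 3 of the 9 tested members, against 9.11% of all genes. The means of Notch2 in odd and even libraries were 18.8 and 25.9 FPKM in controls and 18.5 and 24.5 in knockouts. Summed adventitial fibroblast markers were also higher in odd libraries, with 1459 and 1465 FPKM in controls 1 and 3 against 1119 and 1179 in controls 2 and 4, and 1156 and 945 FPKM in knockouts 1 and 3 against 798 and 875 in knockouts 2 and 4. Summed macrophage markers were 342 and 381 FPKM in controls 1 and 3 against 284 and 267 in controls 2 and 4, and 314 and 297 FPKM in knockouts 1 and 3 against 227 and 237 in knockouts 2 and 4. By the same fit 5 of 10 fibroblast and 6 of 10 macrophage markers were higher in odd libraries and 0 lower, while 4 of 20 endothelial markers (among them Pecam1, -0.60, adjusted p = 0.0118) and 3 of 17 contractile markers were lower and 0 higher. Their part in these differences was not tested. The genotype difference itself was not shown to differ between odd and even numbers for any member (limma interaction, adjusted p of 0.33 for Heyl, the lowest, against 1.62% of all genes called). Notch3 fell by 0.89 within the odd-numbered and by 0.81 within the even-numbered libraries, and Heyl differed by 0.84 and 0.16.

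Around the members, 69 other genes of the pathway were grouped by role. Of the 60 that were tested, 6 rose, 11 fell and 43 did not pass, so 28.3% were called against 32.2% of all genes. Their median log2 difference was 0.03, against 0.01 over all tested genes. The counts by role below stand beside 17.1% of all genes called higher and 15% called lower. The lists are small, and nothing particular to a role is read from its count.

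Among other ligands and extracellular partners, 2 of 4 tested genes fell. Mfap5, a protein of elastic microfibrils known to bind Notch ligands and receptors, fell from 178 ± 43 to 73.7 ± 6.04 FPKM (limma log2 difference -1.23, adjusted p = 5.82e-04). Egfl7, a secreted endothelial protein that can bind Notch, fell from 33.8 ± 3.01 to 20.1 ± 3.62 FPKM (-0.73, adjusted p = 0.0027). Dll1 was at 2.51 ± 0.608 and 2.11 ± 0.49 FPKM and did not pass, and Dll3 is listed at 0 in every library.

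Of 6 tested genes that mature the receptors in the Golgi and endoplasmic reticulum, 1 rose, 2 fell and 3 (Furin, Pofut1 and Rfng) did not pass. The Fringe glycosyltransferases Mfng (from 3.90 ± 0.214 to 2.08 ± 0.369 FPKM, adjusted p = 0.00128) and Lfng (from 4.06 ± 0.548 to 2.60 ± 0.325 FPKM, adjusted p = 0.00742) fell, and both encode enzymes that add sugars to the receptors and change which ligands they answer to. Poglut1, which adds glucose to the receptors' EGF repeats, rose from 25.1 ± 1.39 to 33.9 ± 2.20 FPKM (0.42, adjusted p = 0.00173). The call of Lfng was lost within the even-numbered libraries (-0.27).

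Of 8 tested genes of the cleavage machinery 1 fell, the sheddase gene Adam17 (from 9.68 ± 0.418 to 8.24 ± 0.729 FPKM, log2 difference -0.21, adjusted p = 0.047), and its call did not hold when any single library except knockout 3 was left out (-0.23 to -0.17). The Adam17 call was also lost without the filter on low values and within the odd-numbered and the even-numbered libraries. Adam10 was at 18.7 ± 1.29 and 21.0 ± 0.60 FPKM (adjusted p = 0.0759).

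Of 12 tested genes for ubiquitination and endocytosis, 1 rose and 2 fell. The ubiquitin ligase gene Nedd4 rose from 269 ± 9.82 to 328 ± 25.9 FPKM (0.28, adjusted p = 0.0126). Fbxw7, whose product marks the freed Notch domain for breakdown, fell from 7.03 ± 0.257 to 5.71 ± 0.27 FPKM (-0.26, adjusted p = 0.00932). The call of Fbxw7 was lost within the odd-numbered (-0.25, adjusted p = 0.101) and the even-numbered libraries (-0.26, adjusted p = 0.0822), and that of Nedd4 within the odd-numbered libraries (0.18, adjusted p = 0.0888). The ligase gene Neurl1a fell from 1.85 ± 0.464 to 1.02 ± 0.271 FPKM (-0.49, adjusted p = 0.0292), a call that was lost without control 3, control 4, knockout 1 or knockout 3 (-0.48 to -0.39). Within the even-numbered libraries the call of Neurl1a was lost too. Mib1, the ligase that acts on Notch ligands, was at 6.82 ± 0.63 and 8.15 ± 1.40 FPKM (adjusted p = 0.176).

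In the nucleus, Rbpj itself rose, from 25.8 ± 1.69 to 30.9 ± 2.84 FPKM (limma log2 difference 0.25, SE 0.08, adjusted p = 0.0388), the 1 called gene of 8. It had 23.6, 25.7, 26.1 and 27.7 FPKM in controls and 28.0, 33.6, 28.9 and 33.0 in knockouts, without overlap. The call was lost when control 1, 2 or 3 or knockout 2 or 4 was left out (0.21 to 0.26), and also within the odd-numbered libraries. Of 11 corepressor genes, L3mbtl3, whose product binds Rbpj, rose from 3.34 ± 0.669 to 5.07 ± 0.123 FPKM (0.50, adjusted p = 0.00811) and Aes fell from 357 ± 9.78 to 296 ± 15.2 FPKM (-0.27, adjusted p = 0.0059). The call of Aes was lost with quantile normalization (-0.10, adjusted p = 0.151) and within the even-numbered libraries (-0.25, adjusted p = 0.0736), and that of L3mbtl3 within the even-numbered libraries (0.31, adjusted p = 0.0767).

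Among 11 tested genes listed as other targets, 2 were higher and 3 lower, against 17.1% and 15% of all genes. Hes6 is in that list as a Hes family gene, and these data do not show it to be a Notch target. Gja5 (connexin 40, a gap junction protein of arterial endothelium) fell from 20.1 ± 3.79 to 7.81 ± 0.404 FPKM (limma log2 difference -1.24, SE 0.12, adjusted p = 1.74e-04). Relative to the endothelial markers, whose mean was also lower in the knockout, Gja5 was still called lower (-0.64, SE 0.12, adjusted p = 9.72e-04). Pdgfrb, the growth factor receptor of mural cells, had 60.6, 105, 74.1 and 124 FPKM in controls and 123, 149, 141 and 154 in knockouts, and rose (0.68, SE 0.20, adjusted p = 0.0321). Its call was lost without control 1, control 3, knockout 2, knockout 3 or knockout 4 (0.51 to 0.68), and also without the filter on low values. Hes6 rose from 12.0 ± 1.52 to 19.2 ± 2.18 FPKM (0.64, adjusted p = 0.00221). The other two that fell were the growth regulator Myc (from 1.96 ± 0.412 to 1.22 ± 0.280 FPKM, adjusted p = 0.0386) and the repressor gene Snai1 (from 3.81 ± 0.483 to 2.92 ± 0.310 FPKM, adjusted p = 0.0451). The direct targets Hes1 (22.6 ± 5.96 and 22.6 ± 8.08 FPKM, adjusted p = 0.965) and Nrarp (2.95 ± 1.37 and 2.03 ± 0.0525 FPKM, adjusted p = 0.328) did not pass. Nrarp was at 3.85 and 4.34 FPKM in controls 1 and 3 and at 1.45 and 2.15 in controls 2 and 4, against 1.98 to 2.10 in the knockouts, and within the odd-numbered libraries it was called lower (-0.74, adjusted p = 0.00888).

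**Figure D4:**
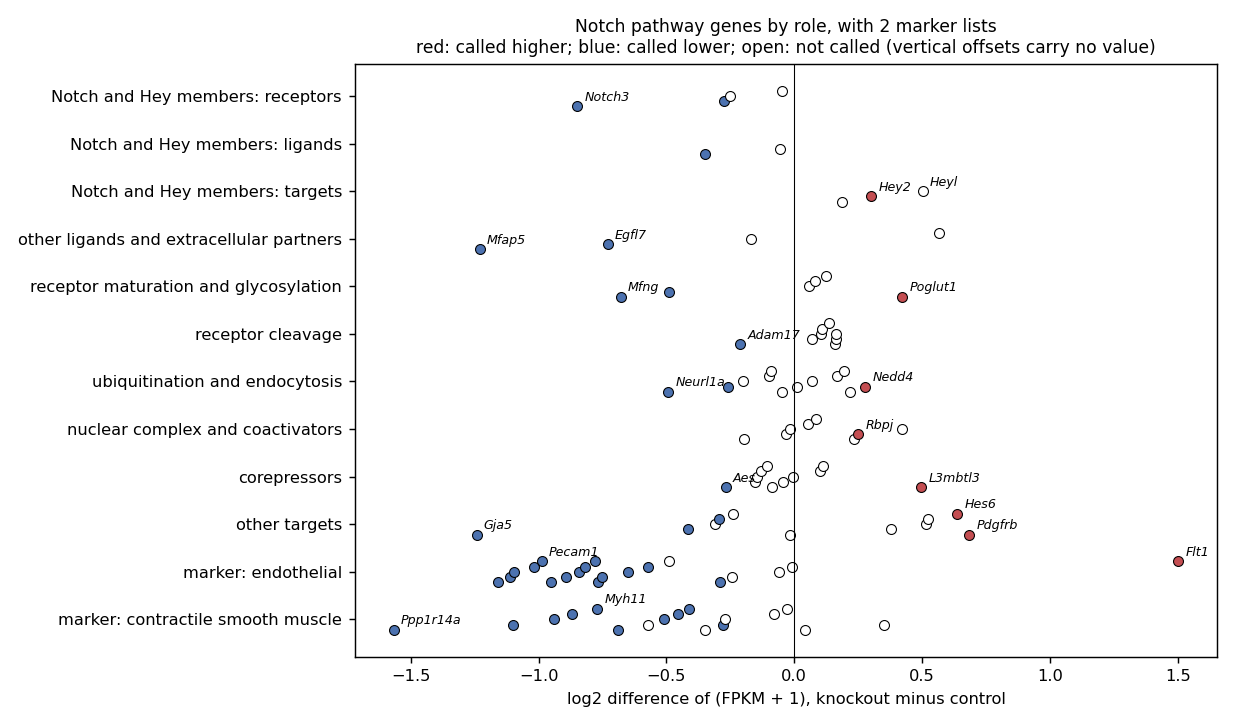
Log2 difference of (FPKM + 1), knockout minus control (horizontal axis), for each tested gene of the Notch pathway by role and for the endothelial and contractile marker lists, red where called higher, blue where called lower and open where not called. Gja5 and Mfap5 lie farthest left among pathway genes, at -1.24 and -1.23, Pdgfrb and Hes6 farthest right, at 0.68 and 0.64, and most markers of both lists lie left of 0, with Flt1 the one marker called higher.

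For each called member the 3 tested genes with the nearest profile were listed, by the root mean square difference of centred log2 values over the 8 libraries. Nearest to Notch3 were Psmb8 (an immunoproteasome subunit, 0.115), Ly6e (0.115) and the noncoding RNA Mirg (0.118), against 0.463 for Notch3 from its own mean. Nearest to Notch1 were Acvrl1 (ALK1, a BMP receptor of endothelium, 0.0349), Fam126a (0.0383) and Il11ra1 (0.0424), nearest to Jag2 were Oard1 (0.0589), Igfbp7 (0.0593) and Gpr157 (0.0643), and nearest to Hey2 were Srpk2 (0.0496), Mpdu1 (0.0526) and Ranbp17 (0.0564). With 12107 genes and 8 libraries some profile is always near.

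The members lie in mm10, by RefSeq's gene bounds, on chromosome 2, 26457902 to 26503822 (Notch1), chromosome 3, 98013538 to 98150367 (Notch2), chromosome 17, 32120820 to 32166896 (Notch3), and chromosome 17, 34564286 to 34588543 (Notch4). The ligands lie on chromosome 2, 137081451 to 137116520 (Jag1), chromosome 12, 112907803 to 112929812 (Jag2), and chromosome 2, 119325784 to 119335666 (Dll4). The Hey genes lie on chromosome 3, 8663359 to 8667038 (Hey1), chromosome 10, 30832359 to 30842783 (Hey2), and chromosome 4, 123233556 to 123249870 (Heyl). In GENCODE M21 the exons of Notch1 (with Gm13568 and 0610009E02Rik), Notch3 (Gm17276), Dll4 (Gm14207), Nrarp (Gm38287), Egfl7 (Agpat2 and Mir126b), Adam17 (Iah1) and Gja5 (Gpr89) overlap exons of a gene on the other strand. The strand setting of the counting is not given in the sources used here, so reads of those pairs may not be separated.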

How the data were processed

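Whole thoracic aorta RNA, selected for polyA tails, was sequenced by the authors in 8 libraries, 4 per group. The deposited values are FPKM per gene and library. TopHat2, Cufflinks, Cuffdiff and mm10 are named, without roles or versions, per the submitters' processing notes; neither annotation nor strand setting nor scaling is given in the sources used here. On log2(FPKM + 1), limma 3.58.1 (R 4.3.3; lmFit and eBayes with trend, two-sided) compared the genotypes over the 12107 genes averaging 1 FPKM or more, with genotype as the only term and Benjamini-Hochberg adjustment over all of them; an adjusted p under 0.05 is a call. The script was tested on simulated data. Relative fits subtract each library's mean over a marker list. The members and lists were chosen with earlier results of these data known. Genes named are the 10 members, Tsc1, Rbpj, Hes1, Nrarp, Adam10 and Mib1, up to 3 called genes per role with the largest difference, the 3 nearest profiles of each called member, and markers that a result turns on; Dll1, Dll3, Myc, Snai1 and Flt1 were added after their values were seen, and 1 gene of the rule is not reported here. Alternatives changed the pseudocount, filter, scaling, replicate terms and the libraries used.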

Additional observations from a re-analysis of the deposited data

Results flagged for a closer look

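The groups of 4 libraries were examined for 1 library far from the other 3, in the 10 members and the other named pathway and marker genes (68 groups, of which chance alone flags about 1 in 20). In 1 group, Jag1 in knockouts, the lowest library stood apart: knockout 1 had 12.5 FPKM, against 14.1 to 14.4 in the other 3 knockouts. The gap was 0.867 of the group's range. That spread is small beside the one in controls, 11.5 to 19.8 FPKM.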

How the results depend on the processing

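Over 17 alternatives the counts of all called genes stayed within 1.5 times of 2074 and 1819 (1611 to 2636 higher and 1417 to 2353 lower), and the call of Notch3 was kept. Calls of Notch1 were lost within odd-numbered (-0.26) and even-numbered libraries (-0.28), with leave-one-out values of -0.31 to -0.23. Jag2 was lost with quantile scaling (-0.32), the replicate block (-0.35) and the odd-numbered libraries (-0.28), and ran from -0.40 to -0.30 leaving out 1 library. Hey2 was lost without the filter (0.30) and within even-numbered libraries (0.18), and ran from 0.21 to 0.37. Heyl was called with the replicate block (0.50) and within odd-numbered libraries (0.84), and ran from 0.36 to 0.72. Notch4 was called with quantile scaling (-0.26) and ran from -0.31 to -0.22. Signs turned for Notch2 (-0.16 to 0.030 leaving out 1 library), Jag1 (0.083 in odd-numbered libraries, -0.15 to 0.091), Hes1 (0.30 in odd-numbered libraries, -0.23 to 0.13) and Nrarp (0.11 in even-numbered libraries), none of them called where the sign turned. Relative to contractile markers, signs turned in even-numbered libraries for Notch1 (-0.049), Notch4 (-0.13) and Jag2 (-0.18), and for Jag2 with a pseudocount of 0.1 (-0.11).

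The pathway count of higher genes was 10 with the replicate block, 4 to 8 leaving out 1 library and 11 with odd against even numbers as covariate, against 6 as reported; that of lower genes was 6 with a filter of 5 FPKM, 4 in even-numbered libraries and 7 to 9 leaving out 1 library, against 11. Members higher relative to endothelial markers were 4 with the filter of 5 FPKM, against 7. Relative to contractile markers they were 3 with quantile scaling, 8 in odd-numbered libraries, 1 in even-numbered libraries and 3 to 5 leaving out 1 library, against 5. The causes were not tested, except that the stricter filter tests fewer genes. The replicate number is not established as a pairing: deviations from the group means correlated at 0.0656 to 0.173 between same-numbered libraries, and at -0.193 to 0.160 between other-numbered ones; controls 1 and 3 correlated best with a knockout of another number. With the replicate block 2349 genes were higher and 2122 lower, and Notch3 was called lower than the endothelial mean (-0.25, adjusted p = 0.0307). The unknown depth limits Jag2 and Dll4 most.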
